A study of Mus musculus with 4 samples.

Results

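The genes described here are Eif4a1, Eif4a2 and Eif4a3, which encode the eIF4A family of RNA helicases. They are 3 of the 22180 genes that have a probe set with 1 gene symbol. They were read on 6 of the array's 41345 probe sets, those that the platform annotation gives 1 of these symbols and no other. Eif4a1 had 2 such probe sets, Eif4a2 had 3 and Eif4a3 had 1. The genes were chosen by the low Eif4a2 value on 1 array of this series, the double knockout at d2, so every comparison that uses that array is a description and carries no test.

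eIF4A proteins are DEAD-box helicases that use ATP to open RNA structure. eIF4A1 and the closely related eIF4A2 act in eIF4F, the complex that binds the mRNA cap through eIF4E, is held together by the eIF4G scaffold and prepares the leader of the message for the scanning ribosome. eIF4A2 has also been linked to the CCR4-NOT deadenylase in microRNA repression, and eIF4A3 is a core subunit of the exon junction complex, which marks spliced mRNA and takes part in nonsense-mediated decay (NMD). Eif4a1 and Eif4a2 are also host genes, with small nucleolar RNAs (snoRNAs) encoded in their introns.

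Total RNA came from E14tg2a cells, a mouse embryonic stem cell line grown in serum with LIF. The 4 arrays, all on strip 2, held wild-type cells (WT) and Ctbp1/2 double-knockout cells (DKO), labelled as lacking both CtBP corepressors, at the time points labelled d0 and d2. The series title names PRDM14 overexpression, of which d0 and d2 are taken to be days 0 and 2. The labels do not say how overexpression was started, whether it applies to every array, or how many DKO clones there were. Each group had 1 array, so no difference below has a replicate error or a p-value, and whether values would differ again between cultures cannot be judged.

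The values are log2 expression values per probe set as deposited, from RMA according to the submitters' processing notes. A difference of 1 is called 2-fold on the assumption that the base is 2. The array medians lay between 0.35 and 0.41, and probe sets below 0.303 on every array, a limit set at the 40th percentile of the table, were left out of counts over tested probe sets. Probe sets below 1 on every array are called dim here. On each array 9.5% to 11.4% of all probe sets were above 1, so low values were usual. The targeted genes were dim on every array, Ctbp1 at 0.63 and 0.32 in WT and 0.56 and 0.42 in DKO, and Ctbp2 at 0.55 and 0.46 in WT and 0.55 and 0.42 in DKO, at d0 and d2. Neither was lower on both DKO arrays than on both WT arrays, so these probe sets do not check the knockout labels, and DKO names the arrays labelled so. Prdm14 measured 0.34 and 0.42 in WT and 0.24 and 0.68 in DKO, dim as well, so overexpression could not be read either. The DKO d2 array had a Pearson correlation of 0.727 with each of the other arrays across probe sets, where the other pairs gave 0.827 to 0.832. The part of this lower likeness in the results on DKO d2 was not tested. Of the 11 probe sets for embryonic stem cell markers, which include Pou5f1, Sox2 and Nanog, none reached a value of 1 on the WT arrays and 1 did so on each DKO array. Of the 16 for differentiated or fibroblast markers, 1 reached it on WT d2 and 2 on DKO d0. The summed values of the stem cell list ran from 5.24 to 6.74 over the arrays and those of the differentiated list from 6.14 to 9.04, so these lists do not identify the cells.

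Eif4a2 had 1 bright probe set and 2 dim ones, and the drop, a low value on DKO d2, was on the bright one alone. Probe set 17324396 measured 7.13 and 6.74 in WT and 7.13 and 3.04 in DKO, at d0 and d2. The first 3 arrays lay within 0.39 of each other, and DKO d2 was lower than their mean by a log2 difference of -3.97. The difference between d2 and d0 was -4.10 in DKO, or 17.1-fold, and -0.39 in WT. At d0 DKO and WT differed by 0.0014, and at d2 by -3.71. The value on DKO d2 stood at the 98.4th percentile of that array, where the other arrays had it at the 99.7th or 99.8th.

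The other Eif4a2 probe sets could not have shown a drop of this size. They measured 0.44 and 0.42 on DKO d0, near the filter limit and not shown to be above background, where the lowest value of any probe set on DKO d2 was -0.88. Probe set 17324378 measured 0.25 and 0.54 in WT and 0.44 and 0.79 in DKO, which made DKO d2 its highest array. Its d2 values were above those at d0 by 0.29 in WT and by 0.36 in DKO. Probe set 17324400 measured 0.040 and 0.26 in WT and 0.42 and 0.26 in DKO. Its DKO difference was -0.17, and it reached the filter limit on DKO d0 only, so its order of arrays is that of values not shown to be above background.

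**Figure D1:**
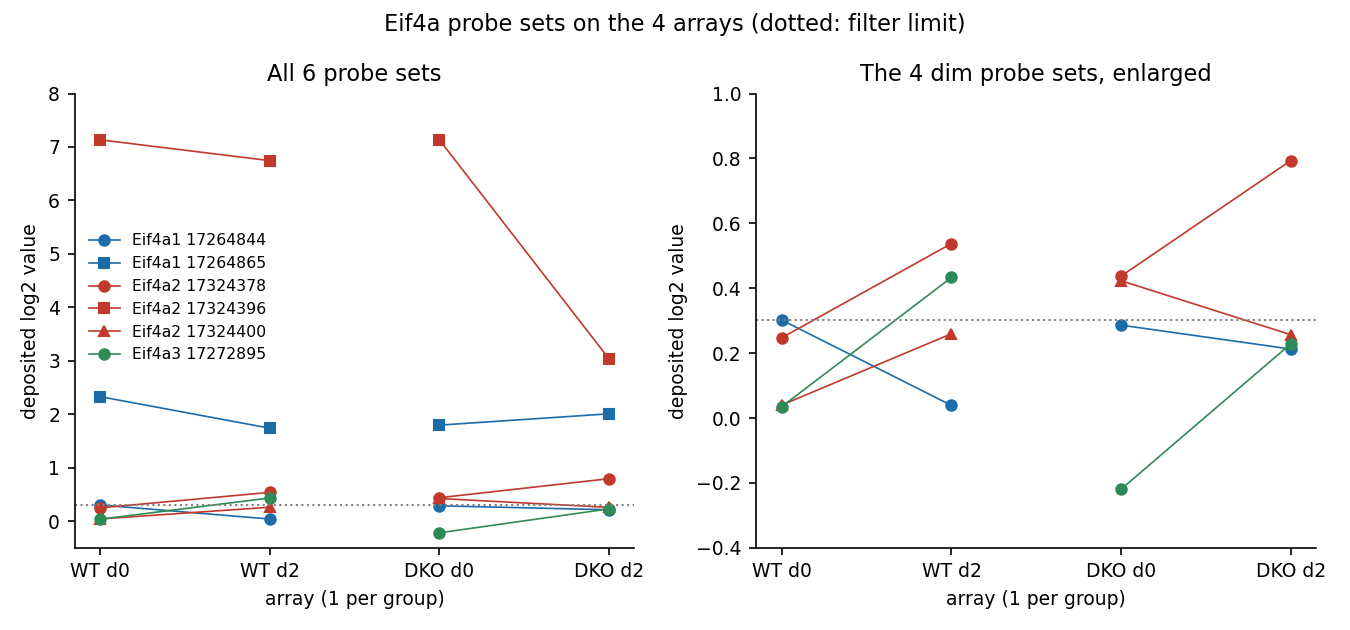
Deposited log2 values of the 6 Eif4a probe sets on the 4 arrays, 1 array per group, with lines joining d0 and d2 within a genotype and a dotted line at the filter limit (0.303); the right panel enlarges the 4 dim probe sets. Eif4a2 probe set 17324396 goes from 7.13 to 3.04 in DKO, and the other Eif4a2 probe sets stay below 1.

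A further 3 probe sets name Eif4a2 together with another gene and are not members. The one shared with Snord2, a snoRNA, measured 0.71 and 0.35 in WT and 0.68 and 0.59 in DKO, at d0 and d2. The one shared with Snora81, also a snoRNA, measured 0.14 and 0.93 in WT and 0.41 and 0.12 in DKO. The one shared with Rfc4, a subunit of the clamp loader of DNA replication, measured 0.31 and 0.32 in WT and 0.76 and 0.67 in DKO. None of them was bright, and their DKO differences were -0.096, -0.30 and -0.084. The RefSeq gene table of GRCm38.p6, used for names and neighbours alone, places 5 snoRNA genes inside Eif4a2, Snord2 and Snora81 among them, and 3 inside Eif4a1. The annotation does not say which exon, intron or snoRNA a probe set reads, so what the bright probe set measures beyond its symbol cannot be told from these data.

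The change of Eif4a2 as a gene therefore depended on how its probe sets were combined. The probe set with the highest mean gave -4.10 for DKO d2 against d0, the mean of the 3 probe sets gave -1.30 and their median gave 0.36. Without 17324396 the mean of the remaining pair was 0.095. These last 2 values rest on dim probe sets, so their sign is not read as a direction. Leaving out 17324378 or 17324400 in place of it gave -2.13 and -1.87. The means that include 17324396 are smaller in size than -4.10 because they average in dim probe sets, which could not have shown the drop. The median was the value of 17324378 on every array. The mean over all 6 probe sets that name Eif4a2 was -0.73, which is less than 2-fold. In WT the same summaries lay between -0.39 and 0.29.

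**Figure D2:**
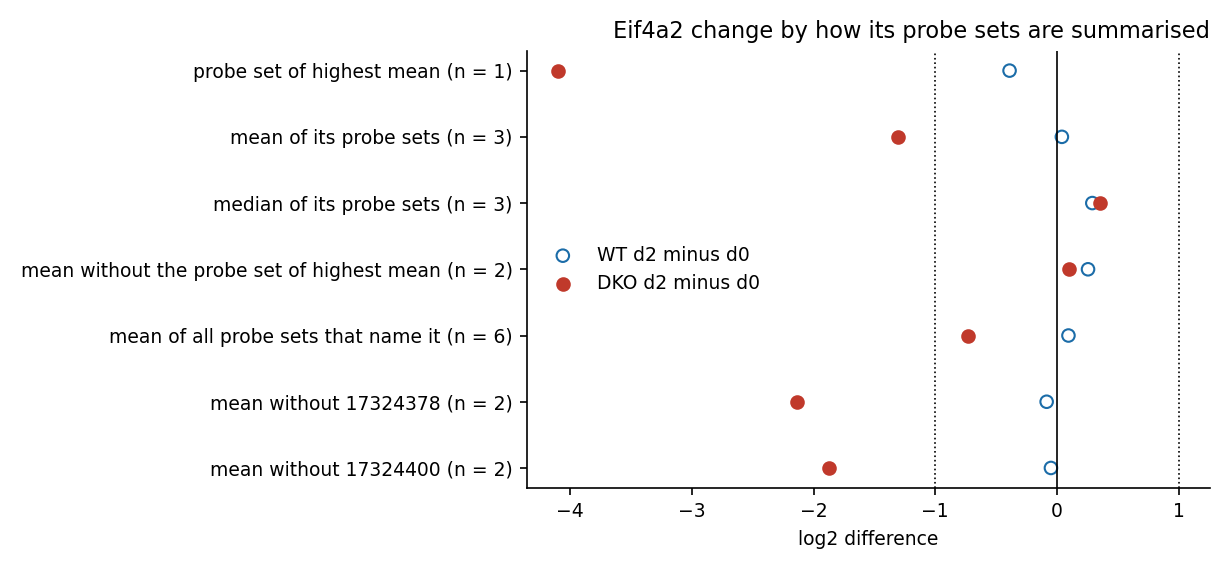
Log2 difference of d2 against d0 for Eif4a2 in WT (open circles) and DKO (filled circles) under 7 ways of combining its probe sets, with n the number of probe sets and dotted lines at 2-fold. The DKO value runs from -4.10 for the brightest probe set to 0.36 for the median of 3.

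The probe sets of Eif4a2 also lay far apart in level. Their means over the arrays ran from 0.24 to 6.01, a range of 5.77 that ranked 5th of the 1082 genes with 2 or more probe sets, where the median range was 0.25. A bright probe set can fall much further than a dim one, so a wide span of differences can follow from this gap in level. The DKO difference spanned 4.45 over the 3 Eif4a2 probe sets, the widest span among the 1082 genes, whose median span was 0.30 and whose 95th percentile was 0.95. The next widest spans were 2.57 for the ribosomal gene Rpl13 and 2.42 for the heterochromatin gene Cbx3. Among the 81 genes with exactly 3 probe sets the median span was 0.47. In WT the Eif4a2 probe sets spanned 0.68, which ranked 86th of the 1082. The 2 Eif4a1 probe sets spanned 0.29 in DKO and 0.33 in WT. The span uses the DKO d2 value that led to the choice of Eif4a2, so its rank is a description.

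**Figure D3:**
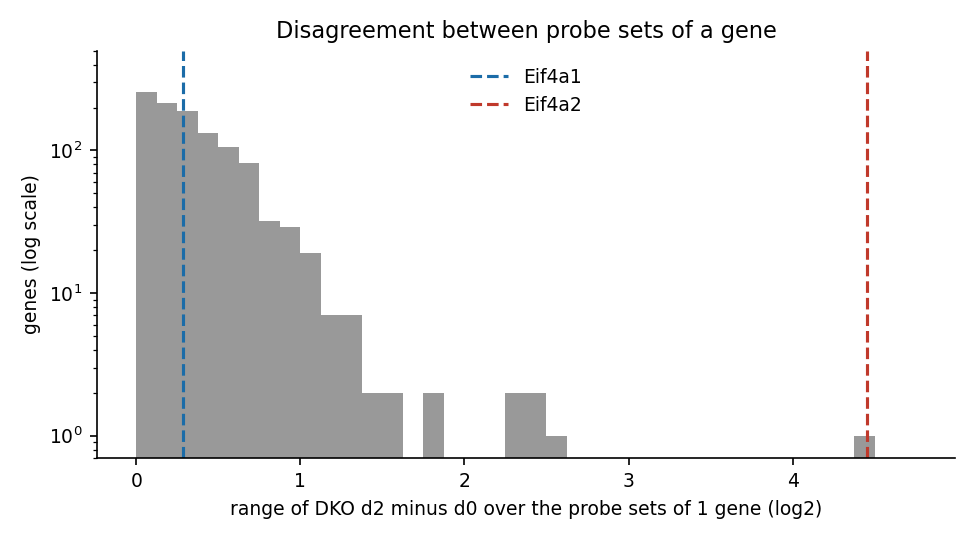
Number of genes (log scale) by the range of the DKO d2 minus d0 difference over a gene's probe sets, for the 1082 genes with 2 or more. The dashed lines mark Eif4a1 at 0.29 and Eif4a2 at 4.45, where Eif4a2 stands alone.

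Among probe sets with 1 symbol, 17324396 had the lowest DKO difference of the 21145 that passed the filter. Over all 41345 probe sets, 62 had a lower difference still, and 61 of these had no gene symbol. Probe sets of like brightness were read beside it, with a WT mean within 1 of its own 6.94. Of the 14 others with 1 symbol, 2 were lower by at least 2-fold in DKO, none was higher and none was as low. The 6 protein-coding ones had a median of -0.24. That median lies between probe sets of 1 gene, Hspa8, which stood at -0.29, -0.28 and -0.20. Of the 102 with no symbol, 50 were lower by at least 2-fold (49.0%), 11 were higher and 23 were at or below -4.10. None of the 14 could be as low, because the bright Eif4a2 probe set was the lowest of all 21145. That rank uses the DKO d2 value that led to the choice of Eif4a2, so it is a description. Of its neighbours without a symbol, 22.5% were as low. In WT 7 of those 102 were lower by at least 2-fold.

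**Figure D4:**
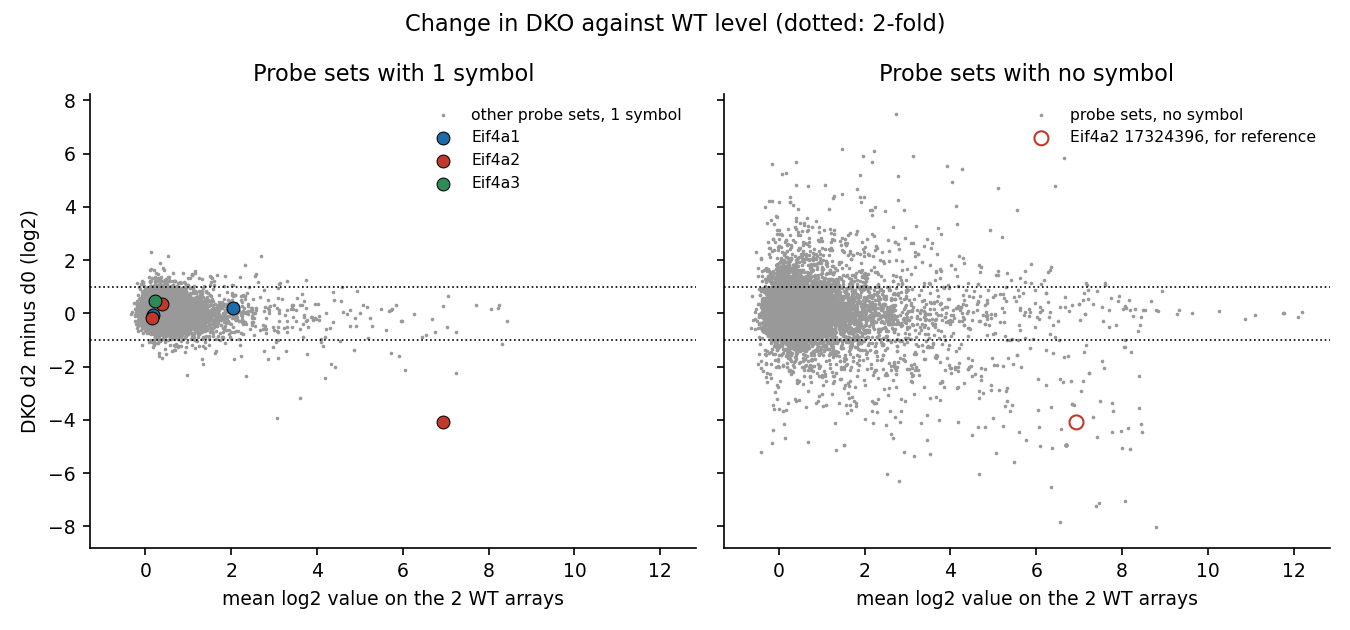
DKO d2 minus d0 difference (log2) against the mean of the 2 WT arrays for probe sets with 1 symbol (left, Eif4a members coloured) and with no symbol (right, the bright Eif4a2 probe set as an open circle), with dotted lines at 2-fold. Eif4a2 at -4.10 is the lowest point on the left and lies among other points on the right.

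By the fixed rule, the 8 probe sets whose values over the 4 arrays, each minus its own mean, lay nearest to those of 17324396 were listed. The Euclidean distance was 0.67 for Twf1, an actin monomer-binding protein, 0.94 for Mir1946a and 1.43 for the olfactory receptor gene Olfr503. The other 5 were Mir1195, Mir466h, Mir328, Rps12-ps24 and Rpl13 at 1.54 to 1.77. The DKO differences of the 8 ran from -3.93 for Mir1946a to -1.91 for Rpl13. All of them were among the 10 lowest of the tested probe sets with 1 symbol. The distance rests largely on the DKO d2 value that led to the choice of Eif4a2. The list thus largely repeats the ranking by DKO difference and is not read as a shared profile. No other Eif4a probe set spanned 1 or more over the arrays, so none was matched.

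Eif4a1, the main cytoplasmic eIF4A of dividing cells, had 1 clear probe set. Its DKO d2 value was above those of DKO d0 and WT d2 and below that of WT d0. Probe set 17264865 measured 2.33 and 1.74 in WT and 1.80 and 2.01 in DKO, at d0 and d2. WT d0 was its highest array, and the other 3 lay within 0.27 of each other. The d2 difference was -0.59 in WT and 0.21 in DKO. The WT difference and the d0 difference between genotypes (-0.53) both lay just below the middle 95% of tested probe sets (-0.51 to 0.54, and -0.51 to 0.53), and both use the WT d0 value. Of 960 other probe sets with 1 symbol and a WT mean within 1 of this one, 46 (4.79%) had a WT difference as low. At d2 DKO was above WT by 0.27. Probe set 17264844 measured 0.30 and 0.039 in WT and 0.29 and 0.21 in DKO, and its highest value, 0.302, was just under the filter at 0.303, so it is the 1 member left out of the counts over tested probe sets. The means of the 2 Eif4a1 probe sets over the arrays were thus far apart, at 0.21 and 1.97. The annotation does not say which exon, intron or snoRNA either of them reads.

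Eif4a3 was below the filter limit on 3 of 4 arrays. Its probe set 17272895 measured 0.035 and 0.43 in WT and -0.22 and 0.23 in DKO. Both d2 values were above their d0 values, by 0.40 in WT and 0.45 in DKO, which lay within the middle 95% of tested probe sets (-0.51 to 0.54 in WT, -0.57 to 0.68 in DKO). A probe set for the related gene Eif4a3l1 measured 0.26 and 0.20 in WT and 0.69 and -0.18 in DKO. One shared by Eif4a3, Eif4a3l1 and Gm5576 measured 0.59 and 0.36 in WT and 0.30 and 0.62 in DKO. These did not order the arrays alike.

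Counted over the members, 0 of 6 passed 2-fold for d2 against d0 in WT, where 0.345% of the 21145 tested probe sets did. For d2 against d0 in DKO 1 of 6 passed, the bright Eif4a2 probe set, where 0.974% of tested probe sets passed. For DKO against WT 0 of 6 passed at d0 (0.374% of tested probe sets), and 1 of 6 at d2 (0.951%). For the DKO change minus the WT change 1 of 6 passed (2.38%). It was the same probe set and the same DKO d2 value each time, so these are not separate observations, and nothing is read from a count that the choice of Eif4a2 fixed.

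The genes that work with eIF4A were read at low values, as most probe sets on the array were. They could not show a difference like that of the bright Eif4a2 probe set. The 16 partner probe sets had medians of 0.32 to 0.48 over the arrays and a highest value of 1.26, and the other lists below had medians of 0.18 to 0.53 and a highest value of 1.58. The shares of all tested probe sets past 2-fold, 0.345% to 2.38% over the 5 comparisons, leave few or none to be counted in lists of this size, and nothing about a list is read from such a count. Of 16 probe sets for eIF4F subunits and eIF4A partners, which include the cap-binding Eif4e, the scaffold Eif4g3 and the cofactors Eif4b and Eif4h, none passed 2-fold in any comparison. Their DKO differences had a median of -0.040, where all tested probe sets had 0.036. Paip2, an inhibitor of poly(A)-binding protein, had the highest DKO difference, going from 0.26 to 0.87 (0.61), followed by the eIF4E inhibitor Eif4ebp1 at 0.26. Pabpc1, the main cytoplasmic poly(A)-binding protein, and the eIF4E kinase Mknk2 had the lowest, at -0.25 and -0.20. Eif4b measured 1.25 and 1.26 in WT and 1.16 and 0.98 in DKO, and Eif4ebp1 0.81 and 0.92 in WT and 0.89 and 1.15 in DKO, at d0 and d2.

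Of 32 tested probe sets for other initiation factors, 1 passed 2-fold for d2 against d0 in DKO, where 0.974% of all tested probe sets did. It was higher at d2 and was Eif1ad, a gene with an eIF1A-like domain, which measured 0.26 and 0.32 in WT and 0.061 and 1.08 in DKO (1.02). The change of Eif2s2, the beta subunit of the eIF2 complex that brings initiator tRNA, was lower in DKO than in WT by a difference of -1.09, with values of 0.32 and 0.62 in WT and 1.10 and 0.31 in DKO. It was the 1 probe set of the list past 2-fold in that difference, where 2.38% of all tested probe sets were. A probe set of Eif3d at -0.48 and Eif3l at 0.49, both of the eIF3 complex, were next in DKO. The other Eif3d probe set differed by 0.018. The median DKO difference of the list was 0.021.

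Neither the exon junction list nor the CCR4-NOT list held a probe set past 2-fold in any comparison, as few would at 0.345% to 2.38% of all tested probe sets. The 13 of the exon junction complex and nonsense-mediated decay had a median DKO difference of 0.036, with the splicing coactivator Srrm1 at -0.86 and the NMD nuclease Smg6 at -0.45 as the lowest. The NMD helicase Upf1 at 0.37 and a probe set of the splicing factor Cwc22 at 0.25 were the highest. The other Cwc22 value in the list was 0.036. The 7 tested CCR4-NOT subunits ran from -0.31 (Cnot2) and -0.24 (Cnot10) to 0.39 (Cnot7) and 0.40 (Cnot6) in DKO. In WT Cnot9 differed by 0.34 and Cnot10 by 0.33, the highest of the 7.

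Of 32 tested probe sets for other DEAD-box helicases, 0 passed 2-fold in any of the 5 comparisons, against 0.345% to 2.38% of all tested probe sets. Ddx3x, a helicase with a role in translation, was lower at d2 in both genotypes, from 1.03 to 0.076 in WT (-0.95) and from 0.73 to 0.078 in DKO (-0.65). Its 2 d2 values are both below the filter limit. A probe set of Ddx18, a nucleolar helicase, differed by -0.39 in DKO, from 0.43 to 0.037. The other Ddx18 probe set went from 0.87 to 0.54 (-0.33). Ddx46 and Ddx55 differed by 0.35 and 0.42 in DKO. The list of snoRNA genes of Eif4a1 and Eif4a2 held 7, not all of those that the RefSeq table places inside them. None of the 7 had a probe set of its own.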

How the data were processed

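Total RNA was purified with a PureLink kit and biotin-labelled for whole-transcript arrays, per the labels' protocols. The deposited table holds log2 values per probe set, made by the authors with RMA; the submitters' processing notes name it without a version. The table does not state the base, taken here as 2. Which arrays were normalized together is not stated. RMA equalizes arrays at the probe level, so a change that moved most probes would be reduced.

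Of 41345 probe sets 23521 had 1 gene symbol, 1814 several and 16010 none, and 23328 matched the RefSeq table by Entrez number for current names. The filter kept 21145 probe sets, among them 5 of the 6 members. Differences between arrays were computed per probe set, with no test: an additive fit of genotype and day would rest on the same DKO d2 value. In the gene lists, probe sets of 1 gene with identical values counted as 1, which left out 6 copies of Cwc22. Not every listed gene had a probe set with 1 symbol. Those that did were 16 of 19 partners, 32 of 37 other initiation factors and 12 of 19 exon junction and NMD genes. They were 9 of 11 CCR4-NOT subunits and 31 of 34 other DEAD-box helicases. Genes named from a list were those past 2-fold or the 2 highest and 2 lowest in DKO, with a few added for their role or span after values were seen. Members and lists were chosen with earlier results of these data known. The counting was tested on simulated data. Alternatives were array medians set equal, quantile normalization, cyclic loess, other summaries of a gene, other filters and a 1.5-fold threshold, and the mean over shared probe sets was added after seeing the data. Tools were Python 3.11.15, numpy 2.4.6, pandas 2.3.3, matplotlib 3.10.9, R 4.3.3 and limma 3.58.1.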

Additional observations from a re-analysis of the deposited data

Results flagged for a closer look

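The d2 difference had opposite signs in the genotypes for 2 Eif4a probe sets, each with 1 array per group, and the difference was not tested. For Eif4a1 probe set 17264865 the DKO change minus the WT change was 0.80, from -0.59 in WT and 0.21 in DKO. For Eif4a2 probe set 17324400 it was -0.39, from 0.22 in WT and -0.17 in DKO. Both differences of changes lay within the middle 95% of tested probe sets, -0.78 to 0.85. Probe set 17324400 reached the filter limit on DKO d0 only, so its signs are those of values not shown to be above background.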

How the results depend on the processing

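The Eif4a2 difference of -4.10 for DKO d2 against d0 was -1.30 as the mean of all its probe sets and -0.73 as the mean of all that name it. As the median and without the brightest probe set it was 0.36 and 0.095, values of dim probe sets from which no reversal is read. Its scaling alternatives gave -4.14, -3.98 and -3.87, and the 30 member differences moved by at most 0.27 under them. In 2 of these 90 values the sign changed, both for DKO against WT at d0 on probe set 17324396 (-0.0088 with medians set equal and -0.0074 after quantile normalization, 0.0014 as deposited). At 1.5-fold the probe sets higher and lower numbered 387 and 325 for d2 against d0 in WT, 804 and 483 in DKO, 376 and 340 for DKO against WT at d0, 794 and 482 at d2, and 1606 and 1196 for the difference of changes. At 2-fold, the DKO split of 128 higher and 78 lower became 100 and 96 (medians set equal), 105 and 96 (quantile) and 106 and 84 (cyclic loess). The split of DKO against WT at d2, 113 and 88, became 94 and 100, 92 and 93, and 99 and 89. That of the difference of changes, 277 and 227, became 228 and 262, 221 and 267, and 230 and 255. No paired analysis was possible because each group had 1 array. Signal over background was not measured, so dim members cannot be ordered.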

Other observations

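Of all 16010 probe sets without a gene symbol, 764 (4.77%) were at least 2-fold lower in DKO at d2 against d0. More of them, 950, were at least 2-fold higher. Among bright ones the balance went the other way. Of the 211 with a WT mean of at least 5, 87 (41.2%) were lower by at least 2-fold in DKO at d2 against d0, 25 were higher and 36 were lower by at least 4 on the log2 scale. Of the 34 with 1 symbol at that level, 6 were lower by at least 2-fold and none was higher, and the bright Eif4a2 probe set was the 1 lower by at least 4. The lowest difference among probe sets without a symbol was -8.03.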
